A study of Arabidopsis thaliana with 24 samples.

Results

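Loci near the centromeres of Arabidopsis thaliana, the thale cress, were followed through the first divisions of the embryo. Locus names in this plant are numbered in order along each chromosome, so the members were taken by number: AT1G37000 to AT1G41999, AT2G08000 to AT2G12999, AT3G30000 to AT3G42999, AT4G05500 to AT4G08999 and AT5G28000 to AT5G33999, less 2 loci that the rule leaves out. This gave 2415 of the 32399 loci in the tables, and the remaining 29984 loci served as the comparison. The rule used no measured value.

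The study asked how far the mother and the father each contribute to the transcripts of the apical and the basal lineage. Hybrid embryos from reciprocal crosses of the accessions Col (Col-0) and Ler were taken at 2 stages, and the labels name no treatment. The 8 groups had 3 libraries each, described as independent biological replicates: embryo proper and suspensor of 32-celled embryos, and apical cell and basal cell of 2-celled embryos, each from both directions of the cross, Col mother and Ler father or Ler mother and Col father. The apical cell founds most of the embryo, the basal cell founds the suspensor that anchors and feeds it, and at the later stage these lineages are the embryo proper and the suspensor. Every sample was thus a hybrid, and no selfed parent entered the comparisons. Messenger RNA was captured on oligo-dT beads and amplified before sequencing, so RNA without a poly(A) tail is measured poorly. The labels of 4 libraries, all of the basal lineage, name 2 library kits (Nextera XT or NEBNext), where those of the other 20 name Nextera XT. Sequencing depth is not given in the sources used here.

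A plant centromere is an array of satellite repeats, flanked by heterochromatin in which transposons, their decayed copies and a few genes lie together. DNA methylation, methylation of histone H3 and small RNAs keep most transposons there silent, through maintenance enzymes and through RNA-directed DNA methylation. Genes inside such chromatin can still be active, and some of them serve every living cell.

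The highest members that code for protein were ribosomal protein genes, and 3 of them carry much of what follows. Their promoters are shown because all 3 genes were lowest in suspensors. The sequences are the 250 bases before the annotated gene start in the RefSeq TAIR10.1 assembly, 5′ to 3′ on the gene's strand, with capitals for the motif site II (TGGGCC, or GGCCCA on the other strand), which is known from promoters of plant ribosomal protein genes. AT1G41880 encodes a ribosomal protein of the L35Ae family (chr1:15652543-15652792, minus strand), AT5G28060 one of the S24e family (chr5:10070900-10071149, minus strand), and AT2G09990 a protein of the ribosomal protein S5 domain 2-like superfamily (chr2:3781078-3781327, plus strand).
AT1G41880: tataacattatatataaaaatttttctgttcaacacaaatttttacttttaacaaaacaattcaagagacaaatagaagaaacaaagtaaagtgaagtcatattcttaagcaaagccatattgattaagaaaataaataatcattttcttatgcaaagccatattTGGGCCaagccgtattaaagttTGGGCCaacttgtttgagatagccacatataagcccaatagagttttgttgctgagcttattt
AT5G28060: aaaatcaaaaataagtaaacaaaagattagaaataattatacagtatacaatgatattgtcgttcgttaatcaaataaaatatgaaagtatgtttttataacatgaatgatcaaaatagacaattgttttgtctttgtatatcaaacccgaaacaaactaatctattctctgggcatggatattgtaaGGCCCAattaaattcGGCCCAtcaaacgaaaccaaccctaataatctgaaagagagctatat
AT2G09990: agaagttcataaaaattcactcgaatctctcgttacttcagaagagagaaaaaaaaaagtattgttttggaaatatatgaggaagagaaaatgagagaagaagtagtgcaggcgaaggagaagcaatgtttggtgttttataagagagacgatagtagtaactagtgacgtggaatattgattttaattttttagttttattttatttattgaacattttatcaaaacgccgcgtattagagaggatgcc
Site II began 85 and 63 bases before the start of AT1G41880 and, in the reverse complement, 62 and 47 bases before that of AT5G28060, and the matches did not overlap. The window of AT2G09990 held no match. Of 26711 such windows of protein-coding loci, 13.9% held site II on either strand, against 47.1% of the 325 windows of loci whose product name is a ribosomal protein. Of the 447 windows of protein-coding members, 25 (5.59%) held it. The telo box (AAACCCTA, or TAGGGTTT on the other strand) was in none of the 3 windows, in 20 member windows (4.47%) and in 4.44% of all windows. These matches describe the letters in the windows.

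The members are mostly annotated pseudogenes. By the RefSeq gene table, 1898 members (78.6%) were pseudogenes, against 2012 (6.71%) of all other loci, and 447 (18.5%) were protein-coding, against 26265 (87.6%). A further 19 members were RNA genes and 51 had no entry in the table. The chromosome blocks spanned chr1:14036038-15695693 with 204 members, chr2:3618058-5342694 with 380, chr3:11767113-15043310 with 665, chr4:2783273-5772949 with 613 and chr5:10020653-12794551 with 553. One numbered member, AT3G36659, lay at chr3:2100021-2101402, 9.67 Mb from its block. Products were uncharacterized or hypothetical for 26.8% of protein-coding members and for 9.55% of the other protein-coding loci. The median exon length was 1087 bases for protein-coding members and 1587 bases for the others.

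Few members reached a measurable level. Values are FPKM, fragments per kilobase of transcript scaled to the mapped fragments of the library, as deposited by the authors, and a locus is called detected in a library at an FPKM of at least 1. Across the 24 libraries 4.72% to 5.84% of members were detected, against 41.7% to 50.8% of all other loci. Some 223 members (9.23%) reached detection in at least 1 library, against 68.6% of other loci. In all 24 libraries 1827 members (75.7%) were listed at 0, against 20.7%. Reads from repeated sequence may be split among copies or lost, so a low value need not mean that a locus was silent.

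The gap was present in every group. In embryo proper from Col mothers 5.34% ± 0.18 of members and 49.1% ± 1.66 of other loci were detected (mean ± SD, n = 3 here and for the other groups), and from Ler mothers 5.33% ± 0.276 and 48.8% ± 0.614. In suspensors the shares were 5.07% ± 0.311 of members and 46.5% ± 2.89 of others from Col mothers, and 4.86% ± 0.145 and 43.7% ± 1.90 from Ler mothers. Suspensors from Ler mothers thus had the lowest share both of members and of other loci.
In apical cells 5.07% ± 0.228 of members and 48.5% ± 1.42 of others were detected with a Col mother, and 5.63% ± 0.207 and 48.6% ± 1.91 with a Ler mother. In basal cells the shares were 5.30% ± 0.0717 and 48.0% ± 0.201 with a Col mother, and 5.37% ± 0.0239 and 46.4% ± 0.405 with a Ler mother. Members were detected less often than other loci in 24 of 24 libraries.

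The gap was narrower among protein-coding loci. Of protein-coding members 21.9% to 27.3% were detected in a library, against 46.8% to 56.9% of the other protein-coding loci, and again the members were lower in 24 of 24 libraries. By cell type the means were 25.5% ± 0.895 of members in embryo proper, 23.3% ± 1.62 in suspensors, 25.0% ± 1.52 in apical cells and 24.7% ± 0.56 in basal cells (n = 6 each). For the other protein-coding loci they were 54.9% ± 1.25, 50.6% ± 2.96, 54.5% ± 1.68 and 52.7% ± 0.989 in the same order. Among loci with a named product, 30.9% of the 327 members and 55.3% of the 23757 others were detected on average, and among uncharacterized or hypothetical ones 7.57% of 120 members and 33.0% of 2508 others. Pseudogenes also differed: 0.263% to 0.896% of member pseudogenes and 2.39% to 4.77% of the others were detected, the members being lower in 24 of 24 libraries.

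**Figure D1:**
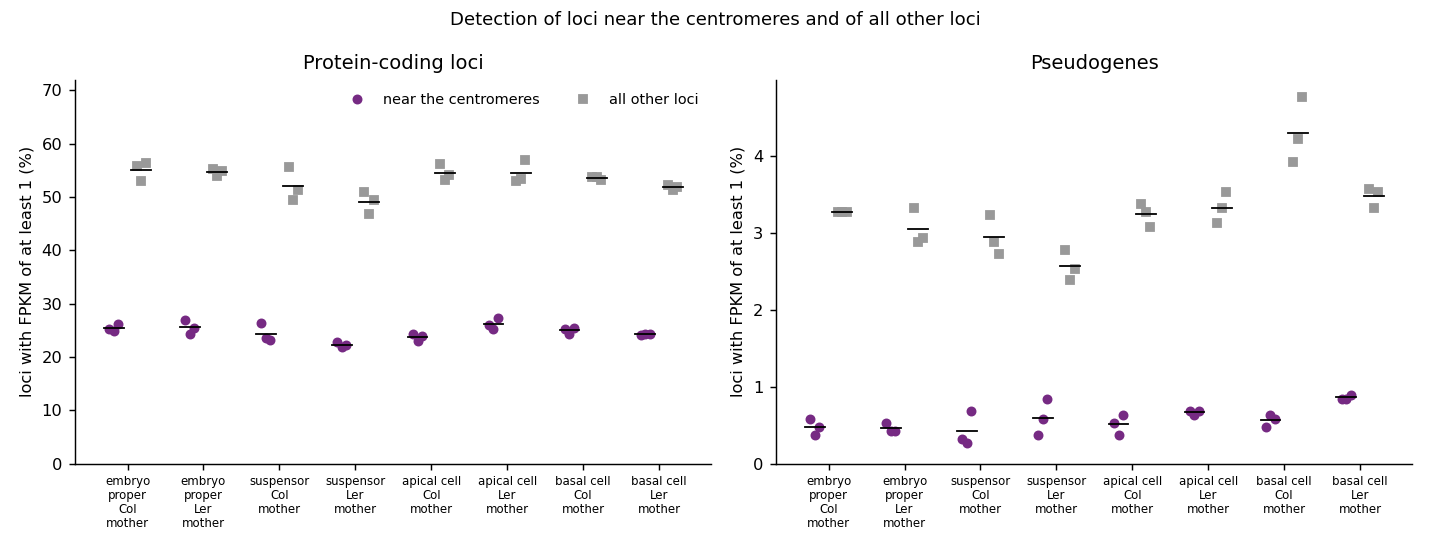
Share of loci with an FPKM of at least 1 in each of the 24 libraries (points), for protein-coding loci on the left and pseudogenes on the right, with bars at the mean of the 3 libraries of a group; the vertical scales differ. Members (purple circles) lay below all other loci (grey squares) in every library, at 21.9% to 27.3% against 46.8% to 56.9% for protein-coding loci.

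Detected members of all kinds had a median of 11.4 to 17.7 FPKM over the libraries, against 12.8 to 21.7 FPKM for all other detected loci, and were lower in 24 of 24 libraries. Among protein-coding loci alone the gap was not there in every library. The median FPKM of detected protein-coding members was 13.6 to 25.1 over the libraries, against 13.1 to 22.1 for the others, and was lower for members in 10 of 24 libraries. Among detected protein-coding loci, 8.74% to 13.8% of members and 10.1% to 14.4% of others stood at 100 FPKM or more, with members lower in 18 of 24. Detected pseudogene members had medians of 1.93 to 5.75 FPKM, against 3.03 to 6.72 FPKM for the other detected pseudogenes. Each of these member medians rests on 5 to 17 loci, and members were not lower in every library.
Detected protein-coding members were also about as widely shared between groups as other protein-coding loci. Of 124 protein-coding members detected in all 3 libraries of at least 1 group, 60 (48.4%) were so in all 8 groups, against 47.4% of the other such loci. Over all kinds of loci, 42.9% of 147 such members and 46.7% of such others were so in all 8 groups, and 8.84% and 6.86% in 1 group. Of 16 such pseudogene members 1 was detected in all 8 groups and 7 in 1 group. Among pseudogenes detected in at least 1 library, 1 of 35 members and 11 of 184 others were detected in all 24. The count in 1 group has no count of other pseudogenes beside it.

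Detection was lower towards the blocks and lower again inside them. Averaged over the libraries, 58.0% of protein-coding loci more than 8 Mb outside a block edge were detected, 49.3% at 2 to 3 Mb, 44.0% at 1.5 to 2 Mb, 39.0% at 1 to 1.5 Mb, 39.8% at 0.5 to 1 Mb and 37.1% within 0.5 Mb outside. Inside the blocks the shares were 24% within 0.5 Mb of the edge, 30.3% at 0.5 to 1 Mb and 14.7% at 1 to 1.5 Mb, the last over 58 protein-coding loci. Detection thus did not fall at every step. The blocks of chromosomes 1 and 2, 1.66 and 1.72 Mb wide, do not reach the last of these bins, which can hold loci of chromosomes 3, 4 and 5 only. Loci more than 1.5 Mb inside, possible only in the chromosome 3 block of 3.28 Mb, were in no bin. The share of pseudogenes among the loci of a bin was 0.933% beyond 8 Mb, 46.8% within 0.5 Mb outside, and 74.6%, 81.3% and 88.7% in the bins inside, from the edge inwards.
The blocks were not alike. Protein-coding members were detected most often on chromosome 4 (33.4% on average of 136) and chromosome 5 (27.8% of 110), and less often on chromosome 1 (18.0% of 19), chromosome 3 (17.2% of 116) and chromosome 2 (16.2% of 66). The numbers AT4G08000 to AT4G08999, at the long-arm end of the chromosome 4 block, alone held 89 protein-coding members and 43 of the 63 members of that block that entered the tests below.

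**Figure D2:**
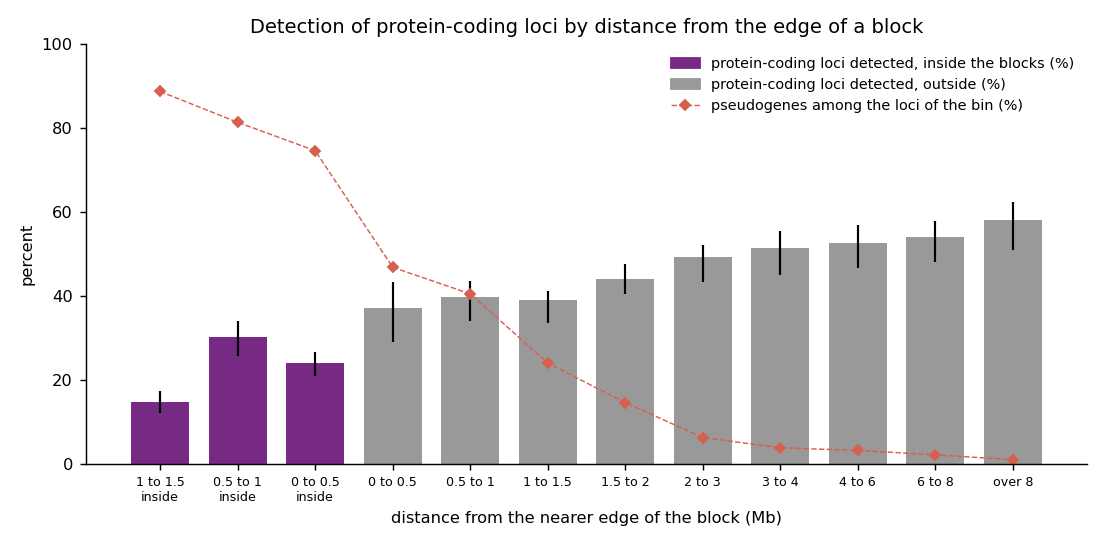
Detection of protein-coding loci by distance in Mb from the nearer edge of a block: bars give the mean percent detected over the 24 libraries, vertical lines the lowest and highest library, and diamonds the percent of pseudogenes among the loci of each bin. Bars inside the blocks (purple) stood at 14.7% to 30.3% and bars outside (grey) at 37.1% to 58.0%. Loci more than 1.5 Mb inside a block are not shown.

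Detection of members differed little between cell types. The percent of members detected was compared between cell types over libraries with two-sided exact permutation tests (6 against 6 libraries, smallest p 0.00216) and adjusted by Benjamini-Hochberg over 15 tests of 3 measures. Embryo proper had 5.33% ± 0.209 and suspensors 4.96% ± 0.245 (n = 6 each), a difference of 0.373 percentage points with an adjusted exact p of 0.0595. Suspensors stood 0.373 points below basal cells, which had 5.33% ± 0.061 (adjusted exact p = 0.0455). That result was not stable, since leaving out any of 11 single libraries took the adjusted exact p above 0.05. These were each of the 6 of the basal cell, replicates 2 and 3 of the suspensor from Col mothers and all 3 from Ler mothers. Over all 24 fits without 1 library the differences were -0.457 to -0.324. Apical and basal cells differed by 0.0138 points and embryo proper and apical cells by -0.0138 points (adjusted exact p = 0.965 for both).
When the percent of members detected was divided by the percent of other loci detected in the same library, no pair of cell types passed the test. This relative detection was 10.9% ± 0.28 in embryo proper, 11% ± 0.286 in suspensors, 11% ± 0.684 in apical cells and 11.3% ± 0.319 in basal cells, with adjusted exact p between 0.241 and 0.794. The number of detected loci of all kinds was 12611 to 15030 in suspensors, against 13930 to 15366 in the other libraries.

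The members' share of all transcripts was lower in suspensors by a wide margin. Members held 0.972% ± 0.0254 of a library's summed FPKM in embryo proper, 0.536% ± 0.0844 in suspensors, 0.887% ± 0.0416 in apical cells and 0.909% ± 0.0277 in basal cells (n = 6 each). The difference of embryo proper from suspensors was 0.436 percentage points and that of suspensors from basal cells -0.373 points, with no overlap of libraries and an adjusted exact p of 0.0153 for both. Embryo proper also exceeded apical cells by 0.0854 points (adjusted exact p = 0.0244), while apical and basal cells differed by -0.0221 points (adjusted exact p = 0.493).
Few genes set this share. Over all libraries the 3 highest members, which are 2 ribosomal protein genes and a ribosomal RNA locus, held 46.7% of the members' FPKM and the 10 highest held 66.1%, and 13 members averaged 100 FPKM or more. The ribosomal protein genes AT1G41880, AT5G28060 and AT2G09990 together held 0.554% ± 0.0344 of all FPKM in embryo proper, 0.122% ± 0.0177 in suspensors, 0.377% ± 0.0274 in apical cells and 0.434% ± 0.0214 in basal cells. With these 3 genes left out, an alternative chosen after the data were seen, members held 0.420% ± 0.030 in embryo proper, 0.414% ± 0.083 in suspensors, 0.512% ± 0.043 in apical cells and 0.477% ± 0.025 in basal cells. The difference of embryo proper from suspensors was then 0.00611 points (adjusted exact p = 0.965), that of suspensors from basal cells -0.0628 points (adjusted exact p = 0.227), and that of embryo proper from apical cells turned round to -0.0915 points (adjusted exact p = 0.0263). That sum still holds the ribosomal RNA locus AT3G41768. Over protein-coding loci alone and without the 3 genes, also chosen after the data were seen, members held 0.387% ± 0.020 in embryo proper, 0.348% ± 0.049 in suspensors, 0.422% ± 0.022 in apical cells and 0.371% ± 0.029 in basal cells. The differences were then 0.0397 points for embryo proper less suspensor, -0.0231 for suspensor less basal cell and -0.0344 for embryo proper less apical cell, and no pair of cell types passed the test (adjusted exact p of 0.287, 0.563 and 0.0974).
Composition moved with these shares: the 10 highest loci of a suspensor library held 16.1% to 26.3% of its FPKM, against 4.32% to 6.73% in the other libraries. Without the 10 highest loci of each library the differences were 0.364 points between embryo proper and suspensors, -0.285 between suspensors and basal cells (adjusted exact p = 0.0153 for both) and 0.108 between embryo proper and apical cells (adjusted exact p = 0.0162). In these bulk samples fewer cells of a type and less RNA per cell cannot be told apart. Pseudogene members together held 0.00231% to 0.0105% of all FPKM.

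**Figure D3:**
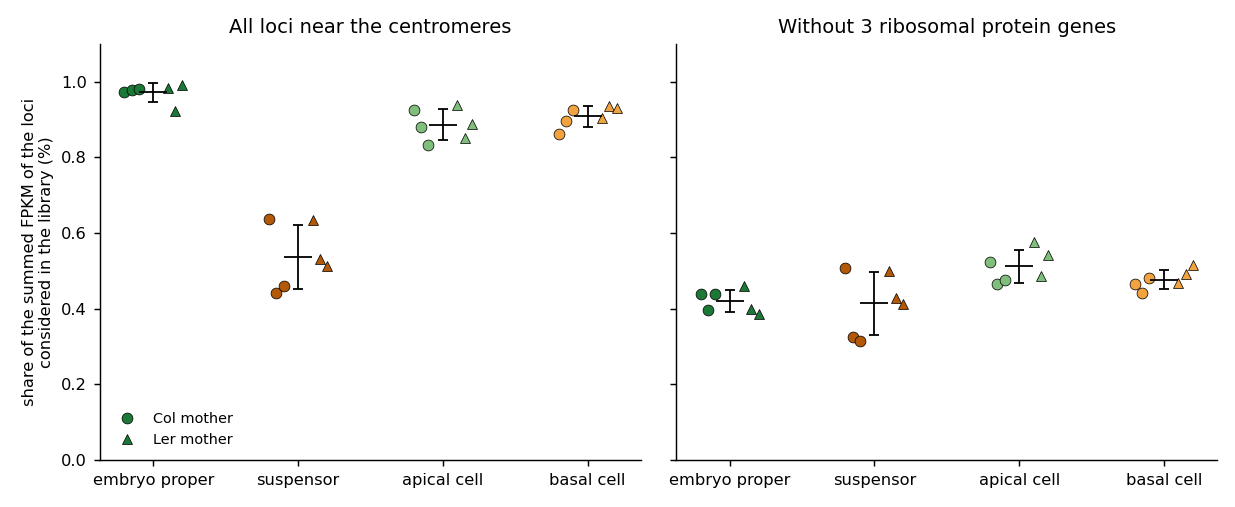
Percent of a library's summed FPKM held by loci near the centromeres in the 24 libraries (circles Col mother, triangles Ler mother), with the mean and SD of the 6 libraries of each cell type; on the right both sums leave out the 3 ribosomal protein genes. Suspensors lay at 0.536% ± 0.0844, below every other library on the left, while on the right the means of embryo proper and suspensor were 0.420% and 0.414%.

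The cell types carried the markers of their labels. Summed FPKM of WOX2, DRN, HAN and ZPR3, genes of the apical lineage, was 332 to 619 in embryo proper, 0.14 to 9.84 in suspensors, 272 to 578 in apical cells and 86.2 to 180 in basal cells, with ZPR3 at 0 in both early cell types. For WOX8, WOX9 and PIN7, genes of the basal lineage, it was 77.4 to 122, 553 to 779, 26.8 to 99.3 and 510 to 664 in the same order. The sum over 6 endosperm markers was 0.54 to 13.2 in embryo proper, 18.7 to 71.5 in suspensors, 0.04 to 1.68 in apical cells and 0 to 42.3 in basal cells, with PHE1 and ZOU at 0 in all libraries. Over 5 seed coat markers it was 12.3 to 27.5, 0.94 to 21.6, 0 to 0.33 and 0 to 5.61, with TT10 and TT16 at 0 throughout. In suspensors 4 of the 6 endosperm markers averaged under 1 FPKM, as did 4 of the 5 seed coat markers in embryo proper. Few genes thus carry these sums. The part of such neighbouring tissue in the results of any of the cell types was not tested.

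Single loci were compared with limma on log2(FPKM + 1) over the 18206 loci that reached 1 FPKM in at least 3 libraries, with adjusted p from Benjamini-Hochberg over all of them and a threshold of 0.05. Members that passed this filter numbered 171, of which 142 were protein-coding, 22 pseudogenes, 6 RNA genes and 1 without an entry. Log2 differences below are on the log2(FPKM + 1) scale, which understates the change of low loci.
Members were called at shares near those of all loci, with fewer lower in embryo proper than in suspensor and fewer higher in suspensor than in basal cell. Between embryo proper and suspensor 54 members (31.6%) were higher and 26 (15.2%) lower, against 28.5% and 22.4% of all loci tested, and their median log2 difference was 0.27, against 0.12 over all. Between suspensor and basal cell 22 members (12.9%) were higher and 46 (26.9%) lower, against 18.9% and 26.0% of all, with medians of -0.38 and -0.15.
Differences between stages in the apical lineage and between the first cells were fewer. Embryo proper against apical cell gave 24 members higher (14.0%) and 17 lower (9.94%), against 10.2% and 11.7% of all loci. Apical against basal cell gave 17 higher (9.94%) and 24 lower (14.0%), against 11.8% and 12.2%. Values scaled to a fixed sum (TPM) moved the median of all loci in that last comparison by 0.10 on the log2 scale and turned the split of members to 22 higher and 20 lower, and of all loci to 2767 and 1911, against 2145 and 2219 on FPKM. Without the 4 libraries of the second kit wording it gave 15 members higher and 13 lower. No counts of all loci stand beside these, so that split cannot be read as particular to the members. The comparisons share libraries, the suspensor ones among them, so their counts are not independent.
The difference between lineages itself changed between the stages for 66 of 171 members in the same fit, the apical lineage less the basal one being higher at the later stage for 44 (25.7%) and lower for 22 (12.9%), against 19.3% and 16.2% of all loci. Members called both between the first cells and between embryo proper and suspensor numbered 21 (12.3%), against 14.7% of all loci, and 13 of them (61.9%) had the same direction, against 77.9% of the 2676 such loci.

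**Figure D4:**
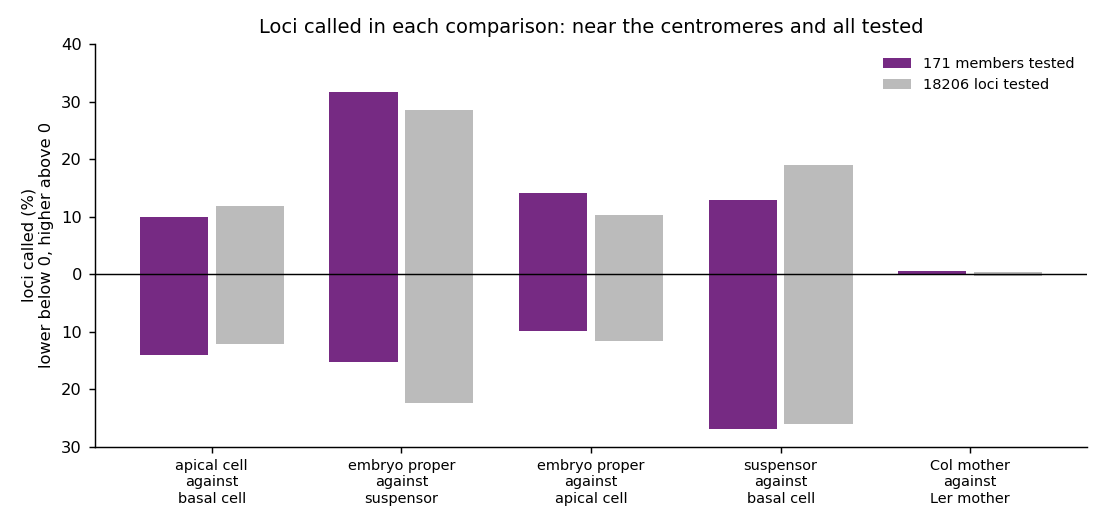
Percent of loci called higher (above 0) and lower (below 0) at an adjusted p under 0.05 in each comparison, for the 171 members tested (purple) and for all 18206 loci tested (grey). Embryo proper against suspensor gave 31.6% of members higher, beside 28.5% of all loci, and suspensor against basal cell gave 26.9% lower, beside 26.0%.

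Among members of the protein synthesis, secretion and cell wall list (8 of 11 tested), 5 were called higher and 1 lower in embryo proper than in suspensor, and 2 higher and 4 lower in suspensor than in basal cell. The shares of all loci, 28.5% higher and 22.4% lower in the first of these comparisons and 18.9% and 26.0% in the second, stand beside the counts of this and the following lists, which are too short to be read against them. Where 3 values are given for a cell type here and below, they are the lowest, median and highest FPKM of its 6 libraries. AT1G41880 had 2995, 3457 and 3871 FPKM in embryo proper, 557, 732 and 1020 in suspensors, 1820, 2092 and 2216 in apical cells, and 2686, 2873 and 2989 in basal cells. AT5G28060 had 1497, 1687 and 1917 FPKM in embryo proper, 360, 508 and 681 in suspensors, 861, 905 and 1295 in apical cells, and 940, 1104 and 1325 in basal cells. For both genes every suspensor library lay below every other library, and those of embryo proper lay above all others. AT2G09990, which is outside that list, had 503, 597 and 778 FPKM in embryo proper, 32.1, 114 and 175 in suspensors, 521, 574 and 668 in apical cells, and 518, 646 and 770 in basal cells. Its suspensor libraries were again the lowest, while those of the other cell types overlapped.
Between embryo proper and suspensor the log2 differences were 2.22 ± 0.09 for AT1G41880, 1.77 ± 0.12 for AT5G28060 and 2.56 ± 0.21 for AT2G09990 (± SE, adjusted p of 1.8e-14, 6.3e-11 and 6.5e-10). Against apical cells embryo proper was higher by 0.74 ± 0.09 for AT1G41880, a call lost under quantile normalization (adjusted p = 0.144), and by 0.81 ± 0.12 for AT5G28060. The promoter of AT2G09990 shown above is the one without site II.
Ribosomal protein genes elsewhere moved the same way, so this is not particular to the members. Of 305 tested loci outside the blocks whose product is a ribosomal protein, a set drawn after values had been seen, 257 were called higher and 7 lower in embryo proper than in suspensor, with a median log2 difference of 1.76. In suspensor against basal cell 5 were higher and 261 lower, with a median of -1.44. Ribosomal proteins come from families of near-identical copies, and reads may be split among them, so single values are uncertain.
Other members of the list had their own patterns. SAH7, a secreted protein of the Ole e 1 and extensin family, had 45.0, 94.1 and 105 FPKM in embryo proper, 0, 0.03 and 6.33 in suspensors, 66.7, 95.4 and 139 in apical cells, and 20.1, 29.5 and 59.9 in basal cells. Its log2 difference was 5.77 ± 0.35 between embryo proper and suspensor, the greatest among the members named for this comparison, and 1.49 ± 0.35 between apical and basal cell (adjusted p = 4.3e-12 and 0.0029). SAH7 overlaps its neighbour AT4G08690 on the other strand by 56 bases. XGD1, a glycosyltransferase of the pectin xylogalacturonan, had 3.18, 16.9 and 25.3 FPKM in suspensors and at most 0.02 FPKM in embryo proper, 0.18 FPKM in apical cells and 6.46 FPKM in basal cells (embryo proper against suspensor -3.92 ± 0.37, adjusted p = 7.5e-09). PCN, a WD-40 protein, had 39.9, 45.6 and 55.3 FPKM in embryo proper and 5.15, 14.1 and 23.3 in suspensors, a log2 difference of 1.75 ± 0.29 (adjusted p = 2.7e-05). BIP1, a chaperone of the endoplasmic reticulum that is almost identical to a second gene, had 98.0, 119 and 159 FPKM in embryo proper, 115, 140 and 241 in suspensors, 37.6, 71.6 and 103 in apical cells, and 64.6, 90.8 and 121 in basal cells. It was higher in embryo proper than in apical cells by 0.83 ± 0.24 (adjusted p = 0.013). The cell wall peroxidase gene Prx37 stayed under 1 FPKM in all 24 libraries.

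Members that act in silencing and chromatin (6 of 7 tested) gave 3 higher and 1 lower in embryo proper than in suspensor, and 1 higher and 2 lower in suspensor than in basal cell, beside the shares of all loci given above. CHR38, known as CLASSY1, is a remodeller that brings the plant-specific RNA polymerase of RNA-directed DNA methylation to its targets. It had 0, 0.08 and 0.83 FPKM in embryo proper, 12.8, 27.2 and 47.7 in suspensors, 0, 0.105 and 1.38 in apical cells, and 0, 1.78 and 4 in basal cells. All 6 suspensor libraries were thus above all 18 others, with log2 differences of -4.42 ± 0.40 from embryo proper against suspensor and 3.48 ± 0.40 from suspensor against basal cell (adjusted p = 3.7e-09 and 2.6e-07).
DAYSLEEPER, a protein derived from a hAT transposase and needed for normal growth, ran the other way. It had 43.2, 56.8 and 67.9 FPKM in embryo proper, 7.33, 12.3 and 37.4 in suspensors, 36.2, 45.8 and 57.6 in apical cells, and 20.6, 36.7 and 77.5 in basal cells. Embryo proper did not overlap suspensors (1.86 ± 0.27, adjusted p = 4.5e-06), and suspensors overlapped basal cells.
GTA2, a transcription elongation factor of the SPT5 type, had 30.0, 38.9 and 56.0 FPKM in embryo proper and 8.92, 16.7 and 20.6 in suspensors, a difference of 1.25 ± 0.24 (adjusted p = 0.00014). AT3G42660, a WD-40 repeat protein, had 12.8, 22.7 and 30.1 FPKM in embryo proper and 0.55, 5.59 and 11.4 in suspensors, a difference of 1.92 ± 0.44 (adjusted p = 0.00091). The lower calls of DAYSLEEPER and GTA2 in suspensor against basal cell (-1.28 ± 0.27 and -0.77 ± 0.24) were lost without the 4 libraries whose labels name the second kit, with adjusted p of 0.067 and 0.060.
AL3, an Alfin-like protein with a PHD finger, varied little: 147, 156 and 171 FPKM in embryo proper, 143, 155 and 212 in suspensors, 150, 214 and 222 in apical cells, and 104, 152 and 182 in basal cells. Its higher level in apical than in basal cells (0.44 ± 0.14, adjusted p = 0.023) lost the call without replicate 1 of the apical cell from Col mothers, replicates 1 or 2 of the basal cell from Col mothers or replicate 3 of that from Ler mothers, with adjusted p up to 0.072. AT4G08990, a DNA methyltransferase locus, stayed under 1 FPKM in all 24 libraries. Of 13 genes of DNA methylation and silencing outside the blocks, 5 were higher and 6 lower in embryo proper than in suspensor, and 6 higher and 1 lower in apical than in basal cells, where 11.8% and 12.2% of all loci were higher and lower.
ORTHL and FBW2 lay outside the silencing and chromatin list and were named for the size of their called differences. ORTHL, known as VIM6 and related to proteins that bind methylated DNA, had 26.1, 29.9 and 31.8 FPKM in embryo proper, 21.4, 51.1 and 74.3 in suspensors, 61.4, 81.7 and 121 in apical cells, and 25.1, 40.0 and 48.8 in basal cells. Apical cells lay above both embryo proper and basal cells, with log2 differences of -1.49 ± 0.22 (embryo proper against apical cell) and 1.18 ± 0.22 (apical against basal cell) (adjusted p = 1.4e-05 and 0.00032). It shares 114 bases with its neighbour AT4G08580 on the other strand. FBW2, an F-box protein that acts on the small-RNA effector AGO1, had 19.6, 27.8 and 33.6 FPKM in embryo proper, 46.5, 53.6 and 84.1 in suspensors, 0, 1.5 and 10.6 in apical cells, and 10.7, 26.6 and 55.7 in basal cells. Apical cells were below each of the other cell types, with differences of 3.46 ± 0.49 for embryo proper against apical cell and -3.34 ± 0.49 for apical against basal cell (adjusted p = 1.1e-05 and 3.3e-05).

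Of the 12 transcription factors and co-regulators in the list 7 stayed under 1 FPKM in all 24 libraries, including the homeobox gene KNAT1 and the MADS gene AGL79. Of all 447 protein-coding members 176 (39.4%) reached 1 FPKM in a library. The 3 that were tested gave 2 higher in embryo proper than in suspensor and 1 higher in embryo proper than in apical cells, where 28.5% and 10.2% of all loci were higher. AN3, a co-activator of cell proliferation in leaves, had 49.3, 65.9 and 107 FPKM in embryo proper, 0, 3.06 and 7.66 in suspensors, 0, 0 and 0.37 in apical cells, and was listed at 0 in all basal cell libraries. Embryo proper stood far above the rest, with log2 differences of 4.49 ± 0.47 against suspensor and 6.05 ± 0.47 against apical cell (adjusted p = 4.2e-08 and 1.3e-09). BZO2H3, a bZIP factor, had 10.1, 16.2 and 21.1 FPKM in embryo proper and 1.71, 4.58 and 17.9 in suspensors, a difference of 1.39 ± 0.40 (adjusted p = 0.0060).
Further regulators lay outside the list. AT4G08910, annotated as a homeobox protein, had 11.6, 21.1 and 36.4 FPKM in embryo proper, 0 in all suspensor libraries, 2.84, 4.83 and 7.35 in apical cells, and 0, 0.355 and 1.58 in basal cells, and was called between the lineages at both stages (adjusted p = 1.1e-09 at the later stage and 0.00036 between the first cells). MCT1, an RNA-binding protein of the MEI2 type, had 7.33, 9.94 and 18.1 FPKM in embryo proper and was listed at 0 in all 18 other libraries (adjusted p = 2.0e-11 against suspensor). AT5G32460, a B3-domain protein, had 1.06, 2.90 and 3.63 FPKM in embryo proper, 0, 0.095 and 17.7 in suspensors, 9.28, 28.2 and 60.4 in apical cells, and 0.08, 3.2 and 7.21 in basal cells. It was higher in apical than in basal cells by 2.93 ± 0.61 (adjusted p = 0.0012), and embryo proper was lower than apical cells by 3.06 on the log2 scale.

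**Figure D5:**
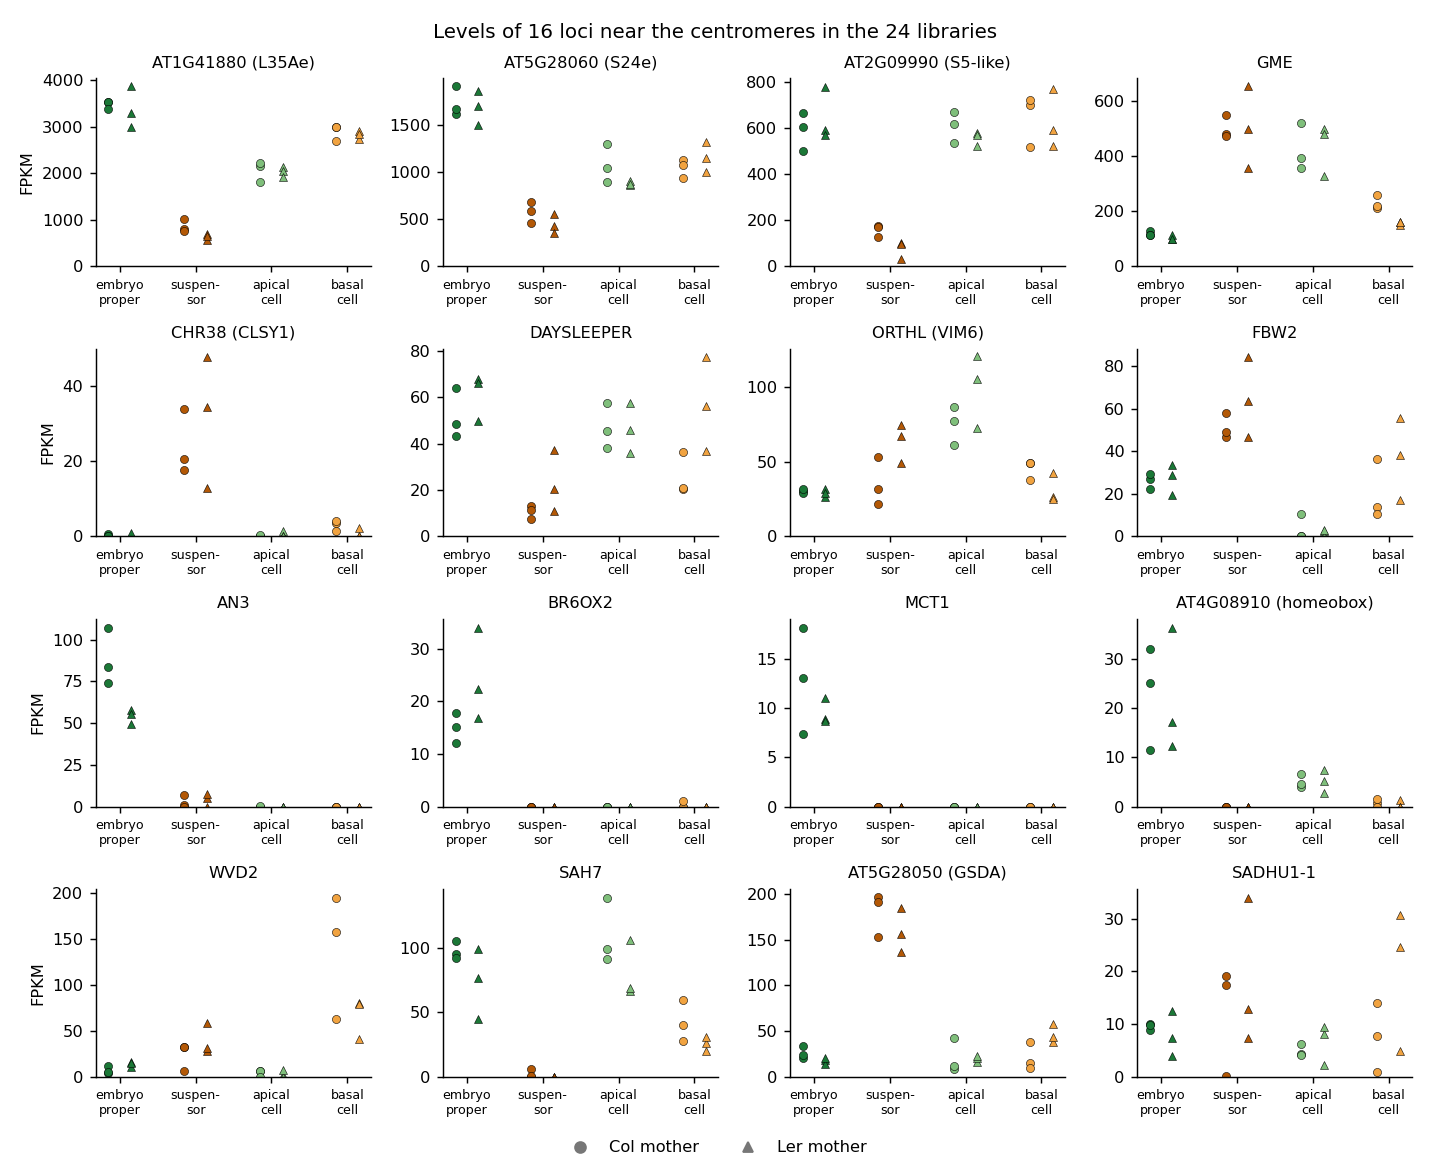
FPKM of 16 members in the 24 libraries (circles Col mother, triangles Ler mother), 1 panel a locus, with linear scales that start at 0 and differ between panels. The ribosomal protein genes were lowest and CHR38 highest in suspensors, AN3, BR6OX2 and MCT1 were highest in embryo proper, and SADHU1-1 overlapped between all cell types.

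Metabolic enzymes (9 of 14 tested) gave 3 higher and 4 lower in embryo proper than in suspensor, where 28.5% of all loci were higher and 22.4% lower. GME, the epimerase that feeds ascorbate and cell wall synthesis, had 99.3, 113 and 130 FPKM in embryo proper, 358, 490 and 655 in suspensors, 329, 437 and 522 in apical cells, and 150, 188 and 258 in basal cells. Its order thus turned round with the stage: 1.15 ± 0.15 between the first cells and -2.15 ± 0.15 at the later stage (adjusted p = 5.0e-06 and 3.4e-11). BR6OX2, the last enzyme of brassinolide synthesis, had 12, 17.3 and 34 FPKM in embryo proper, 0 in all suspensor and apical cell libraries, and at most 1.02 FPKM in basal cells (adjusted p = 5.0e-12 against suspensor).
SAPX, an ascorbate peroxidase of plastids, had 135, 143 and 158 FPKM in embryo proper and 37.2, 62.8 and 110 in suspensors, a difference of 1.2 ± 0.20 (adjusted p = 2.4e-05). IBR1, which acts in the conversion of indole-3-butyric acid to auxin, had 26.5, 29.8 and 34.1 FPKM in embryo proper and 61.5, 83.4 and 150 in suspensors (-1.54 ± 0.27, adjusted p = 6.2e-05). ERD5, a proline dehydrogenase, had 0.12, 1.53 and 11.2 FPKM in embryo proper, 0.71, 37.0 and 47.9 in suspensors, 0.89, 2.37 and 20.6 in apical cells, and 15.4, 25.2 and 156 in basal cells. Apical lineage values were the lower ones at both stages, with overlapping libraries: -2.89 ± 0.74 between the first cells and -3.22 ± 0.74 between embryo proper and suspensor (adjusted p = 0.0064 and 0.00095). The first of these calls was lost without the 4 libraries of the second kit wording (adjusted p = 0.13). The arginase ARGAH1 had 7.8, 12 and 14.8 FPKM in embryo proper and 10.4, 22.9 and 50.4 in suspensors, and AT5G32470 had 4.91, 6.44 and 7.21 and 1.03, 11.6 and 25.8. ACS11, DES1, CYSD2 and QQS stayed under 1 FPKM throughout.
Further enzymes outside the list were highest in suspensors. AT5G28050, a guanosine deaminase, had 13.9, 20 and 33.1 FPKM in embryo proper, 137, 171 and 197 in suspensors, 8.45, 18.2 and 42.4 in apical cells, and 9.04, 38.1 and 57.8 in basal cells (embryo proper against suspensor -2.95 ± 0.32, adjusted p = 8.1e-08). AT2G12190, a cytochrome P450, had 9.30, 11.3 and 21.2 FPKM in suspensors and at most 0.44 FPKM in embryo proper, 0.92 FPKM in apical cells and 1.49 FPKM in basal cells (-3.64 ± 0.31, adjusted p = 1.6e-09). AT3G30841, a phosphoglycerate mutase, had 1.69, 2.54 and 3.56 FPKM in embryo proper and 14.8, 24.6 and 27.2 in suspensors (-2.65 ± 0.38, adjusted p = 3.6e-06).

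Kinases, receptors and signalling members (8 of 9 tested) gave 1 higher and 1 lower in embryo proper than in suspensor, 2 higher in embryo proper than in apical cells, and 2 higher in suspensor than in basal cells. Of all loci 28.5% were higher and 22.4% lower in the first of these comparisons, and 10.2% and 18.9% were higher in the other two. EXO, a secreted protein of the phosphate-induced family linked to brassinosteroid responses, had 143, 236 and 436 FPKM in embryo proper, 180, 302 and 464 in suspensors, 54.2, 75.7 and 119 in apical cells, and 36.9, 64 and 119 in basal cells. Both later cell types lay above the first cell of their lineage without overlap, by 1.52 ± 0.29 and 2.22 ± 0.29 (adjusted p = 0.00034 and 1.4e-06). MEKK1, a kinase of stress signalling, had 12.9, 20.5 and 53.2 FPKM in suspensors and 0, 7.42 and 21.8 in basal cells, a difference of 2.06 ± 0.42 (adjusted p = 0.00036) with overlap. The blue-light receptor CRY1 had medians of 6.45, 8.12, 9.02 and 10.6 FPKM in embryo proper, suspensor, apical cell and basal cell and passed no test between cell types.
Among transporters (4 of 7 tested), 1 was lower in embryo proper than in suspensor and in apical than in basal cells, as were 22.4% and 12.2% of all loci. This was AT3G30390, a putative amino acid transporter, with 3.19, 8.36 and 9.71 FPKM in embryo proper, 22.4, 36.6 and 70.8 in suspensors, 3.78, 12.5 and 28.7 in apical cells, and 18.7, 50.9 and 125 in basal cells. The log2 differences were -2.23 ± 0.44 and -2.22 ± 0.44 (adjusted p = 0.00018 and 0.00066). CUE1, the plastid translocator of phosphoenolpyruvate, had medians of 184, 134, 176 and 140 FPKM in embryo proper, suspensor, apical cell and basal cell and passed no test between cell types. HA8, a proton pump, reached 25.0 FPKM in a suspensor library and 32.8 FPKM in an apical cell library, while its medians were 1.77 to 6.13 FPKM.

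Between the first cells, WVD2 differed most among the members named by rule. WVD2, a microtubule-binding protein of directional growth, had 3.70, 11.3 and 16.2 FPKM in embryo proper, 5.76, 31.4 and 57.9 in suspensors, 0, 4.05 and 7.43 in apical cells, and 41, 79.6 and 195 in basal cells. Apical cells were below basal cells by -4.77 ± 0.55 (adjusted p = 1.4e-06), while its calls in the other comparisons were lost under 2 to 10 of 32 alternatives. AT4G08240, annotated as a histone-lysine methyltransferase, had 28.2, 32.7 and 39.1 FPKM in apical cells and 47.1, 103 and 136 in basal cells (-1.47 ± 0.19, adjusted p = 8.0e-06). AT4G07950, an RNA polymerase subunit, had 50.6, 65.3 and 70.0 FPKM in embryo proper, 12.9, 19.7 and 28.7 in suspensors, 28.4, 36.8 and 46.3 in apical cells, and 57.9, 71.1 and 86.0 in basal cells. It was lower in apical than in basal cells by 0.92 ± 0.21 on the log2 scale and higher in embryo proper than in suspensor by 1.68 ± 0.21 (adjusted p = 0.0021 and 4.2e-07).
AT2G11910, an uncharacterized protein, followed the ribosomal protein genes, with 347, 421 and 453 FPKM in embryo proper, 23.0, 63.3 and 84.4 in suspensors, 153, 214 and 245 in apical cells, and 198, 293 and 382 in basal cells (embryo proper against suspensor 2.91 ± 0.24, adjusted p = 6.7e-10). EHD2, an endocytosis protein, was lowest in suspensors as well, at 2.26, 8.02 and 25.9 FPKM, against 46.7, 56.0 and 77.8 in embryo proper and 42.7, 59.3 and 134 in basal cells. AT5G33300, a kinesin-like protein, had 31.9, 42.1 and 48.7 FPKM in embryo proper, 0.19, 11 and 28.2 in suspensors, 64.4, 79.7 and 104 in apical cells, and 38.5, 59.3 and 99.4 in basal cells (2.22 ± 0.47, adjusted p = 0.00039, embryo proper against suspensor). AT5G33390, a glycine-rich protein, had 5.96, 19.0 and 26.7 FPKM in apical cells and at most 0.17 FPKM in embryo proper and 0.14 FPKM in suspensors, and embryo proper was lower than apical cells (-3.99 ± 0.43, adjusted p = 2.3e-07).

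Loci that do not code for protein were few and mostly low. The 22 tested pseudogenes gave 4 higher and 1 lower in embryo proper than in suspensor, 1 higher and 5 lower in apical than in basal cells, and 0 higher and 6 lower in suspensor than in basal cells. The shares of all loci higher and lower were 28.5% and 22.4%, 11.8% and 12.2%, and 18.9% and 26.0% in the same order. SADHU1-1, a retroposon copy, had 4, 9.32 and 12.4 FPKM in embryo proper, 0.13, 15.1 and 34.0 in suspensors, 2.14, 5.20 and 9.47 in apical cells, and 0.88, 10.8 and 30.7 in basal cells, and passed no test. AT4G08220, a pseudogene, had medians of 9.36, 5.75, 10.6 and 7.42 FPKM in embryo proper, suspensor, apical cell and basal cell and passed no test either. AT5G28622, another pseudogene, had 1.13, 4.94 and 6.53 FPKM in embryo proper, 0, 0 and 0.70 in suspensors, 0.05, 2.54 and 4.63 in apical cells, and 0.05, 5.79 and 14.6 in basal cells. It was higher in embryo proper than in suspensor by 2.20 ± 0.47 and lower in suspensor than in basal cell (-2.34 ± 0.47, adjusted p = 0.00044 and 0.00029), and it shares 1005 bases with another RNA locus on the same strand.
AT4G06740, which had no entry in the gene table, had values above 0 in the apical lineage, with 1.56, 1.88 and 2.27 FPKM in embryo proper, 4.02, 14.0 and 29.4 in apical cells, and 0 in all suspensor and basal cell libraries (adjusted p = 3.6e-08 between the first cells). The noncoding RNA AT4G08035 was highest in basal cells, at 92.3, 109 and 187 FPKM, against 36.6, 44.9 and 56.9 in embryo proper, 1.68, 15.7 and 80.9 in suspensors, and 28.0, 39.3 and 65.6 in apical cells (suspensor against basal cell -2.94 ± 0.48, adjusted p = 2.8e-05). AT2G11240, a pseudogene that overlaps annotated genes on the other strand, was lower in apical than in basal cells, at 0.52, 1.53 and 1.94 FPKM against 5.62, 6.87 and 9.88 (-1.86 ± 0.37, adjusted p = 0.00081).
The third highest member of all was AT3G41768, an 18S ribosomal RNA locus, with 108, 217 and 517 FPKM in embryo proper, 106, 183 and 2195 in suspensors, 405, 795 and 1177 in apical cells, and 761, 901 and 1056 in basal cells. Ribosomal RNA comes from many near-identical copies and lacks a poly(A) tail, so its values are uncertain, and its calls were lost under 11 and 12 of 32 alternatives.

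The direction of the cross touched few members. Averaged over the 4 cell types, 1 of 171 members (0.585%) was higher with a Col than a Ler mother and 0 were lower. Of all loci tested by limma 0.401% were higher and 0.39% lower. The median log2 difference was -0.11 over members and 0.0091 over all loci. An unadjusted limma p under 0.05 was reached by 31 members, a count with no share of all loci to set beside it. The member called was AT3G41979, a 5.8S ribosomal RNA locus, with a mean difference over the 4 cell types of 1.65 ± 0.33 (adjusted p = 0.018). All its 164 bases are shared with another RNA locus on the same strand. Like AT3G41768 it is a ribosomal RNA without a poly(A) tail, so its values are uncertain. In basal cells it had 48.0, 56.3 and 49.8 FPKM with a Col mother and 0 in all 3 libraries with a Ler mother. Basal cells thus weigh heavily in the mean, which need not hold in each cell type. Without replicate 1 of the embryo proper from Col mothers the difference was 1.57 and its adjusted p 0.052, with adjusted p of 0.0042 to 0.052 over all alternatives. The share of FPKM differed by -0.0200 points and detection by -0.104 points between Col and Ler mothers (adjusted exact p = 0.493 for both, 12 against 12 libraries with labels permuted within cell types).
Relative detection was lower with a Col mother, at 10.8% ± 0.287, than with a Ler mother, at 11.3% ± 0.414 (n = 12 each, difference -0.485 points, adjusted exact permutation p = 0.0153). The call was lost at a detection threshold of 0.1 FPKM (adjusted exact p = 0.327) or 5 FPKM (0.108), in protein-coding loci alone (0.323) and with a replicate block (0.0781). Within cell types the difference was -1.16 points in apical cells and -0.509 in basal cells, where libraries did not overlap, and -0.0419 in embryo proper and -0.227 in suspensors, where they did. In apical cells the members' own detection differed between Col and Ler mothers, at 5.07% and 5.63%, and that of the other loci by -0.0389 points. In basal cells it was the other loci that differed, at 48.0% with a Col mother and 46.4% with a Ler mother. The build named in the submitters' processing notes is of the Col accession, and the part of Ler sequence differences in these values was not tested.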

How the data were processed

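FPKM values per locus were deposited by the authors, 1 table a library for 24 libraries. TopHat2 2.1.1, RSEM and the TAIR10 build are named per the submitters' processing notes; their order, the annotation and the strand setting are not given in the sources used here. Libraries were made with the SMART-Seq kit after mRNA capture, per the labels' protocols. No count or depth was given, so no counting error can be stated: low FPKM values gave estimates from 3.39 to 27.0 M fragments that varied up to 3.73-fold within a library with the fragment length assumed.

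Locus classes, products, coordinates and upstream sequence came from RefSeq TAIR10.1, matched by locus name (31912 of 32399 loci). Members and gene lists were chosen with earlier results of these data known. log2(FPKM + 1) of loci at 1 FPKM or more in at least 3 libraries was fitted with limma 3.58.1 (R 4.3.3; 8 group means, trend) and Benjamini-Hochberg adjustment. Measures with 1 value a library were tested by two-sided exact permutation in Python 3.11.15. Both were tested on simulated data.

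Loci named are the 15 members of highest mean, up to 10 called members a direction with at least 10 FPKM and no overlap of libraries, up to 5 a direction between crosses, list members at 10 FPKM or more, and the 10 highest members that do not code for protein; counts come from all members. Of these, the ones with values of their own to show are given. Alternatives were other pseudocounts, filters, detection thresholds and scalings, a replicate block, protein-coding loci alone, leaving out single libraries or the 4 of the second kit wording, and, chosen after seeing the data, leaving out 3 ribosomal protein genes, over all loci or over protein-coding loci.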

Additional observations from a re-analysis of the deposited data

Results flagged for a closer look

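Of the 21 members called between the lineages at both stages, 16 are named by rule and also passed the limma test of the change itself between the stages (embryo proper minus suspensor, less apical minus basal cell, on the log2 scale, adjusted p under 0.05). Groups of 3 libraries are too small for a test of outlying samples, and no explanation is weighed.

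For 8 members the later difference had the opposite sign to the earlier one. The change is the later difference less the earlier one in the same fit. With opposite signs its call thus follows closely from the other calls and is no separate support. The change was 2.70 for AT1G41880, -3.30 for GME, 3.11 for AT4G08035, 2.60 for AT4G07950, 1.84 for AT3G42150 and 1.95 for AT4G08580. It was -3.71 for AT3G30841 and -1.79 for ORTHL. The later call of AT4G08580 and ORTHL was lost under 11 and 4 of 32 alternatives, and the earlier call of AT3G30841 under 14.

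The sign was shared by both stages for the other members. The change was 4.28 for SAH7, 2.42 for AT4G08910 and 1.63 for EHD2, which stood higher in the apical lineage by more at the later stage, and -2.35 for AT4G06740, by less. It was -2.64 for XGD1 and -1.32 for AT4G08230, which stood lower in the apical lineage by more at the later stage, and 3.36 for WVD2 and 0.75 for AT4G08240, by less. The later call of WVD2 was lost under 10 of 32 alternatives, and the earlier calls of EHD2 and AT4G08230 under 18 and 9.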

How the results depend on the processing

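Counts of members called between cell types stayed within 1.5 times the main count under every alternative run, and over fits without 1 library they were 31 to 45 (apical against basal cell), 70 to 81 (embryo proper against suspensor), 37 to 43 (embryo proper against apical cell) and 59 to 71 (suspensor against basal cell). Between Col and Ler mothers the count of 1 became 2 with a pseudocount of 5, on the TPM scale or with a replicate block, 3 with no filter or without the 4 libraries of the second kit wording, and 0 to 3 without 1 library. The higher detection in embryo proper than in suspensor passed the threshold at 0.1 FPKM (1.1 points, adjusted exact p = 0.0108) and on the TPM scale (0.386 points, 0.0433), and was 0.313 to 0.457 points without 1 library, with the call gained in 3 fits. The lower detection in suspensor than in basal cell missed it at 5 FPKM (-0.214 points), in protein-coding loci (-1.34), without the 4 libraries (-0.301) and with the replicate block (-0.373), and ranged from -0.457 to -0.324 without 1 library. Relative detection in suspensor against basal cell passed at 0.1 FPKM (-1.03 points), and that in Col against Ler mothers missed at 0.1 FPKM (-0.271), at 5 FPKM (-0.305), in protein-coding loci (-0.935) and with the block (-0.485). The share of FPKM in suspensor against basal cell was -0.371 points without the 4 libraries (adjusted exact p = 0.067), against -0.373 with all. With fewer libraries the exact test cannot reach as small a p, so this p alone does not show that the share depends on those libraries. Without the 3 ribosomal protein genes the share differences were 0.00611 (embryo proper against suspensor), -0.0628 (suspensor against basal cell) and, reversed, -0.0915 (embryo proper against apical cell); over protein-coding loci alone they were then 0.0397, -0.0231 and, reversed, -0.0344. Beyond these, the cause was not tested.

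With a block for the replicate number the share differences were 0.436, 0.0854 and -0.373 points for embryo proper less suspensor, embryo proper less apical cell and suspensor less basal cell, each with an adjusted exact p of 0.0781; the smallest unadjusted p for 6 pairs is 0.03125. Correlations of same-numbered libraries, as deviations from group means, ran from -0.0352 to 0.0988 between cell types and from -0.178 to 0.303 between crosses. Such correlations cannot show whether same-numbered samples were collected together. Of 145 named differences 109 kept direction and call under every alternative and none changed sign; calls lost numbered 15 without the 4 libraries, 23 on leaving out single libraries, 8 each with a pseudocount of 0.1, no filter or quantile normalization, 6 on the TPM scale, 4 each with a pseudocount of 5 or the block, and 0 with a filter at 5 FPKM. FPKM without depth limits what can be said of low loci.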
